A study of Rattus norvegicus with 8 samples.

Results

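Of 38 genes that drive or restrain cell division, 7 had a probe set of their own that varied by at least 0.05 (log2) between these rats' livers. Only such genes are called measured here, whatever their level. Of the 7, 1 gene, Gadd45g, was called between the diets. Hepatic Gadd45g, which encodes a stress-induced protein that binds cell cycle kinases and holds back division, was lower in rats fed the high phosphorus (HP) diet by the rank products test but not by limma. Rank products called 9.94% of all measured genes lower and 8.4% higher, so that 1 gene of 7 is near that background. Only 2 of the proliferation genes, Ccnd1 and Cdk1, could be compared between the diets, and neither was called in either direction. So few genes say little about proliferation genes as a class. The genes were taken from a list of names, 30 of them proliferation genes (cyclins and their kinases, replication and nucleotide synthesis factors, and mitotic genes) and 8 of them arrest genes (cyclin-dependent kinase inhibitors and the Gadd45 and Btg families). They are set against 14217 named genes in all. Each gene was represented by the probe set, a group of short array probes for 1 transcript, with the highest mean among those that carried its symbol alone and spanned at least 0.05 on the log2 scale between the lowest and the highest of the 8 rats.

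The samples were livers of male Wistar rats aged 8 weeks. The 4 control rats were fed an AIN-93G diet holding 0.3% phosphorus, and the 4 HP rats a diet of the same base holding 1.2% phosphorus, both for 24 days. No other treatment or genetic change separated or was shared by the groups in the labels. RNA of the whole liver was hybridised with 1 GeneChip array per rat, so the values are averages over all cells of the organ. In such bulk samples, fewer cells of a type and less RNA per cell cannot be told apart. The labels number biological replicates. The limma p-values set a difference against the spread between these rats, which the rank products test does not use.

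A resting cell enters the cycle when D-type cyclins join their kinases and release E2F factors from the retinoblastoma protein, which opens the genes of DNA replication. Later, cyclin A and cyclin B with Cdk1 carry the cell through G2 into mitosis, and genes of that stage are held silent in resting cells by a repressor complex that reads the CHR element of their promoters. Inhibitors such as p21, the product of Cdkn1a, block the kinases, while Gadd45 and Btg proteins slow division under stress or growth factor withdrawal. Hepatocytes of an adult liver are almost all at rest, yet they can return to the cycle after loss of tissue.

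All values below are log2 expression, and a difference of 1 is a doubling. The tissue label was checked first. Of 10 hepatocyte markers, 9 had a named probe set, and their means over the 8 rats ran from 11.5 for Hnf4a to 14.53 for Alb. The 10 lymphocyte markers with a probe set had means between 6.12 and 7.55 and the 6 bile duct markers between 6.15 and 7.30, and every one of them was near constant over the rats. The median of each array was 6.65, and pairs of arrays correlated at r from 0.968 to 0.992 across the tested probe sets.

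Most of the list could not be compared between the diets at all. Of the 30 proliferation genes, 2 were measured (Ccnd1 and Cdk1) and 26 had only near-constant probe sets, while Rrm2 and Hmgb2 were found only on probe sets with several symbols and were not analysed here. Of the 8 arrest genes, 5 were measured (Cdkn1a, Cdkn3, Gadd45a, Gadd45g and Btg1) and 2, Cdkn1b and Gadd45b, were near constant. Btg2 had no entry in the annotation table and was not analysed here. The 28 near-constant genes were held by 38 probe sets, none of which spanned more than 0.00104. The threshold fell in a wide gap, with Btg1 just inside it at a span of 0.474. Just outside it was Tyms, the thymidylate synthase gene, at 0.00103 for the probe set that stands for it.

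The near-constant proliferation genes covered every stage of the cycle. They were the cyclins Ccnd2, Ccnd3, Ccna2, Ccnb1 and Ccnb2, the kinases Cdk2 and Cdk4, the replicative helicase subunits Mcm2 to Mcm7, and the polymerase clamp gene Pcna. The nucleotide synthesis genes Rrm1, Tyms and Tk1, the proliferation marker Mki67, the DNA topoisomerase Top2a, and the mitotic genes Aurka, Aurkb, Bub1b, Plk1, Cdc20, Birc5 and Stmn1 completed the group. Their deposited means included 6.84 for Mki67, 6.93 for Top2a, 6.28 for Ccna2, 7.81 for Mcm7, 8.44 for Cdk4 and 9.26 for Pcna. The median over the 26 genes was 6.93. Among the arrest genes, Cdkn1b, which encodes the kinase inhibitor p27, had a mean of 9.11, and Gadd45b had a mean of 6.68. For these genes the 8 rats received virtually the same value, which says nothing about whether their RNA differed between the diets.

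**Figure D1:**
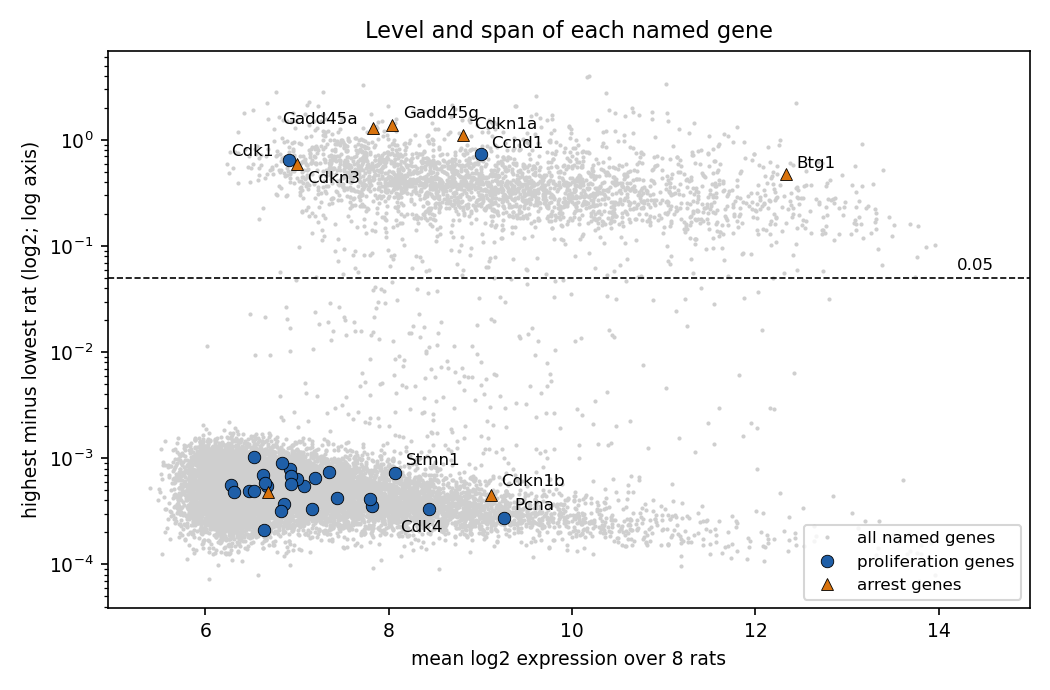
Mean log2 expression over 8 rats (horizontal axis) against the span from the lowest to the highest rat (vertical axis, logarithmic, in log2 units) for each named gene in grey, the proliferation genes as blue circles and the arrest genes as orange triangles. The 7 measured genes lie above the dashed line at 0.05, and the 28 others lie near or below a span of 0.001, also where their mean is above 8, as for Pcna, Cdk4, Stmn1 and Cdkn1b.

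The share of genes with a measurable span went with the level of the probe set across the whole array. Of all 14217 named genes, 2808 (19.8%) were measured. In the range of means from 5 to 7 the share was 1.41% over all named genes, and 2 of the 18 listed genes there were measured. From 7 to 8 the share was 15.1% (1 of 9 listed genes), from 8 to 9 it was 35.3% (2 of 4), and from 9 to 11 it was 59.3% (1 of 3). From 11 to 15 it was 74.0% (1 of 1, Btg1). The measured listed genes had a median span of 0.74 against 0.39 over all measured genes. Both sets were selected by their span and were not matched by level, so nothing particular to the list can be read from this.

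Ccnd1 encodes cyclin D1, the cyclin that links growth signals to entry into the cycle and that rises in regenerating liver. Its level was 9.04, 8.93, 9.31 and 8.63 in control rats 1 to 4 and 8.90, 8.76, 9.11 and 9.38 in HP rats 1 to 4. The diets overlapped over most of their range, with the lowest value in control rat 4 and the highest in HP rat 4. The means were 8.98 ± 0.28 (SD, n = 4) in control rats and 9.03 ± 0.27 (SD, n = 4) in HP rats, a difference of 0.06 with a standard error of 0.17 and a 95% interval from -0.32 to 0.43 (limma adjusted p = 0.909). The rank products FDR was 0.332 in the higher direction.

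The other Ccnd1 probe sets, which carry the symbol Ccnd1 alone, followed the same rats. Their differences between the diets were 0.003 and 0.01. Across the 8 rats the 3 Ccnd1 probe sets correlated pairwise at Pearson r from 0.910 to 0.981 and Spearman rho from 0.929 to 0.976, with exact permutation p for r, adjusted over 5 pairs of probe sets, from 0.0004 to 0.0041 and for rho from 0.0020 to 0.0037. Without the 2 rats farthest from the median, r ran from 0.868 to 0.979. The variation between rats in Ccnd1 was thus seen by separate probe sets on the same arrays, which share the RNA sample.

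Cdk1 encodes the kinase that drives the entry into mitosis. Its level was 6.85, 6.70, 7.07 and 7.01 in control rats 1 to 4 and 6.97, 6.61, 7.26 and 6.86 in HP rats 1 to 4. Both the lowest rat, HP rat 2, and the highest, HP rat 3, had been fed the HP diet. The means were 6.91 ± 0.17 and 6.93 ± 0.27 (SD, n = 4 each), a difference of 0.02 with a standard error of 0.15 and a 95% interval from -0.32 to 0.36 (limma adjusted p = 0.967). The rank products FDR was 0.593 in the higher direction.

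The arrest genes were read against the share of calls over all genes. Against the rank products background given at the start (FDR under 0.05), limma called 0.0% of the tested probe sets at an adjusted p under 0.05. Among the 7 listed genes, rank products called 1 lower and 0 higher, a share near the background from which nothing particular to the list can be read. Limma called 0 of the 7, and 0 of the 7 had an unadjusted p under 0.05 against 12.7% of all tested probe sets. In 0 of the 7 were the rats of the 2 diets fully separated, against 7.12% of all measured genes.

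Gadd45g belongs to the family of growth arrest and DNA damage genes, small proteins that bind Cdk1 with cyclin B and signal to stress kinases. Its level was 8.51, 8.58, 7.47 and 8.61 in control rats 1 to 4 and 8.28, 7.22, 7.98 and 7.65 in HP rats 1 to 4. Control rats 1, 2 and 4 lay within a narrow band above every HP rat, and control rat 3 lay below 3 of the HP rats. All 4 HP rats lay below the control mean of 8.30 ± 0.55 (SD, n = 4), and their own mean was 7.78 ± 0.46 (SD, n = 4).

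The difference in Gadd45g was -0.51 with a standard error of 0.30 and a 95% interval from -1.19 to 0.16, which is 0.702 of the control level. Rank products called Gadd45g lower with an FDR of 0.0024, whereas limma, which sets the difference against the spread between rats, gave an adjusted p of 0.482. Over the alternative settings the rank products FDR ran from 0.0009 to 0.104. The call was lost when only the probe sets spanning at least 0.05 were ranked, a setting under which 0.6% of those probe sets were called higher and 0.432% lower. On simulated data, with each rat drawn independently, the rank products test also called probe sets that had been given no change, more often than its FDR states. Deviations of the real rats were correlated, so the simulation does not say how reliable the Gadd45g call is. Without HP rat 2 the difference was -0.32, or 0.799 of the control level. Without control rat 3 the other control rats averaged 8.57 ± 0.05 (SD, n = 3), the difference was -0.79, or 0.580 of the control level, and the diets did not overlap, as for 9.03% of all tested probe sets without that rat.

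Gadd45a, the p53-responsive member of the same family and a gene of DNA damage and other stress, was not called. Its level was 8.30, 7.57, 7.19 and 8.48 in control rats 1 to 4 and 7.65, 7.60, 8.18 and 7.70 in HP rats 1 to 4. Control rats 1 and 4 were the highest of all and control rat 3 the lowest, so that the control range enclosed every HP rat. The means were 7.89 ± 0.61 and 7.78 ± 0.27 (SD, n = 4 each), a difference of -0.10 with a standard error of 0.28 and a 95% interval from -0.74 to 0.53 (limma adjusted p = 0.895, rank products FDR 0.142 in the lower direction). Control rat 3 was the lowest control rat and control rat 4 the highest rat in both genes. Across the 8 rats the levels of Gadd45a and Gadd45g had r = 0.594 (exact permutation p = 0.123, adjusted over 21 pairs 0.596) and rho = 0.524 (exact permutation p = 0.197), and r was 0.246 without control rats 1 and 4.

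The promoters of both Gadd45 genes are shown for the elements that a script found in them, since 1 of the pair was called and the other was not. The sequences are from RefSeq, build GRCr8, read 5′ to 3′ from 250 bases before to 50 bases after the start, and capitals mark matches to the motifs searched. Gadd45g lies at chr17:13530302-13530601 on the minus strand and held CACGTG (an E-box), CCAAT and TATAAA. Gadd45a lies at chr4:97486750-97487049 on the minus strand and held CCAAT alone.
Gadd45g: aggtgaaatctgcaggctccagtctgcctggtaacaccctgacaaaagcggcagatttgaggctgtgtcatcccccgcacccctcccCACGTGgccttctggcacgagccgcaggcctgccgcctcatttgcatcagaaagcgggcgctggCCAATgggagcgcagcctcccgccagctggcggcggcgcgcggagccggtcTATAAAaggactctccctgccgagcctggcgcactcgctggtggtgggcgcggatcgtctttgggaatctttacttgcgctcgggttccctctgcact
Gadd45a: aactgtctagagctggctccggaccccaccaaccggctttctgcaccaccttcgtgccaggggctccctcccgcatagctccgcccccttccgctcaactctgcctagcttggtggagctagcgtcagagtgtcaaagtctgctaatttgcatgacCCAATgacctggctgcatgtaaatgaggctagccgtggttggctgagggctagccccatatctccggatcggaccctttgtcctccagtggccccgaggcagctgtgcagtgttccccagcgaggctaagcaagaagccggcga

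Searched on both strands in 27457 rat promoters of the same length, the E-box motif was in 6.65%, the TATA motif in 14.3% and the CCAAT motif in 37.7%. Of the listed genes, 32 had a promoter in the table, and Gadd45g was the only 1 of them with the TATA motif. The E-box motif was in 5 of the 32, including Gadd45b beside Gadd45g. These matches describe the letters of the window and do not show that a factor binds there.

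Cdkn1a encodes p21, the inhibitor through which p53 stops the cycle. Its level was 8.89, 9.27, 8.87 and 8.57 in control rats 1 to 4 and 8.78, 8.97, 9.01 and 8.15 in HP rats 1 to 4. HP rat 4 was clearly the lowest and the other 3 HP rats fell within the control range. The means were 8.90 ± 0.29 and 8.73 ± 0.40 (SD, n = 4 each), a difference of -0.17 with a standard error of 0.21 and a 95% interval from -0.64 to 0.30 (limma adjusted p = 0.736, rank products FDR 0.149 in the lower direction). A second Cdkn1a probe set differed in sign. It stood at 7.20, 7.26, 7.16 and 6.87 in control rats and 7.03, 7.71, 7.66 and 6.67 in HP rats, a difference of 0.14 with a 95% interval from -0.38 to 0.67 (limma adjusted p = 0.801). The direction of Cdkn1a therefore depended on the probe set, although HP rat 4 was the lowest rat in both and the pair correlated at r = 0.761 (exact permutation p = 0.0253, adjusted 0.0317) and rho = 0.905 (adjusted exact permutation p = 0.0057), with r = 0.662 without the 2 rats farthest from the median.

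**Figure D2:**
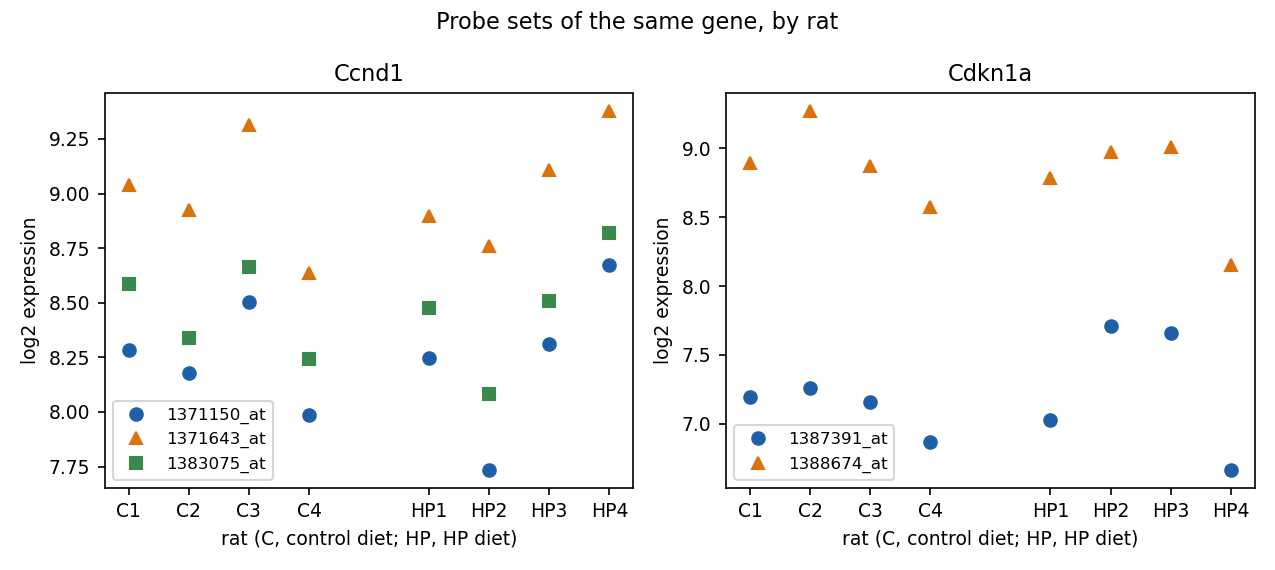
Log2 expression by rat (horizontal axis, control rats 1 to 4 and HP rats 1 to 4) for each probe set of Ccnd1 and of Cdkn1a, 1 point per rat and probe set. The 3 Ccnd1 probe sets rise and fall with the same rats (r from 0.910 to 0.981), and the 2 Cdkn1a probe sets share their lowest rat, HP rat 4, but differ by -0.17 and 0.14 between the diets.

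Btg1 encodes an antiproliferative protein that is abundant in resting cells and recruits the machinery that shortens mRNA tails. Its level was 12.33, 12.55, 12.42 and 12.28 in control rats 1 to 4 and 12.29, 12.41, 12.32 and 12.08 in HP rats 1 to 4. The diets overlapped within a narrow range, with HP rat 4 lowest and control rat 2 highest. The means were 12.39 ± 0.12 and 12.27 ± 0.14 (SD, n = 4 each), a difference of -0.12 with a standard error of 0.08 and a 95% interval from -0.30 to 0.06 (limma adjusted p = 0.527, rank products FDR 0.171 in the lower direction).

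Cdkn3 encodes a phosphatase that removes the activating phosphate from cyclin-dependent kinases, and it is itself made mainly in dividing cells. It was the only measured arrest gene with a higher mean in HP rats. Its level was 6.70, 6.74, 6.96 and 7.26 in control rats 1 to 4 and 7.10, 6.72, 7.29 and 7.21 in HP rats 1 to 4. HP rats 1, 3 and 4 and control rat 4 formed the upper group, and HP rat 2 lay among the lowest control rats. The means were 6.92 ± 0.26 and 7.08 ± 0.25 (SD, n = 4 each), a difference of 0.17 with a standard error of 0.17 and a 95% interval from -0.21 to 0.54 (limma adjusted p = 0.67). The rank products FDR was 0.0697 in the higher direction and fell to 0.015 without control rat 4, where the difference was 0.28.

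**Figure D3:**
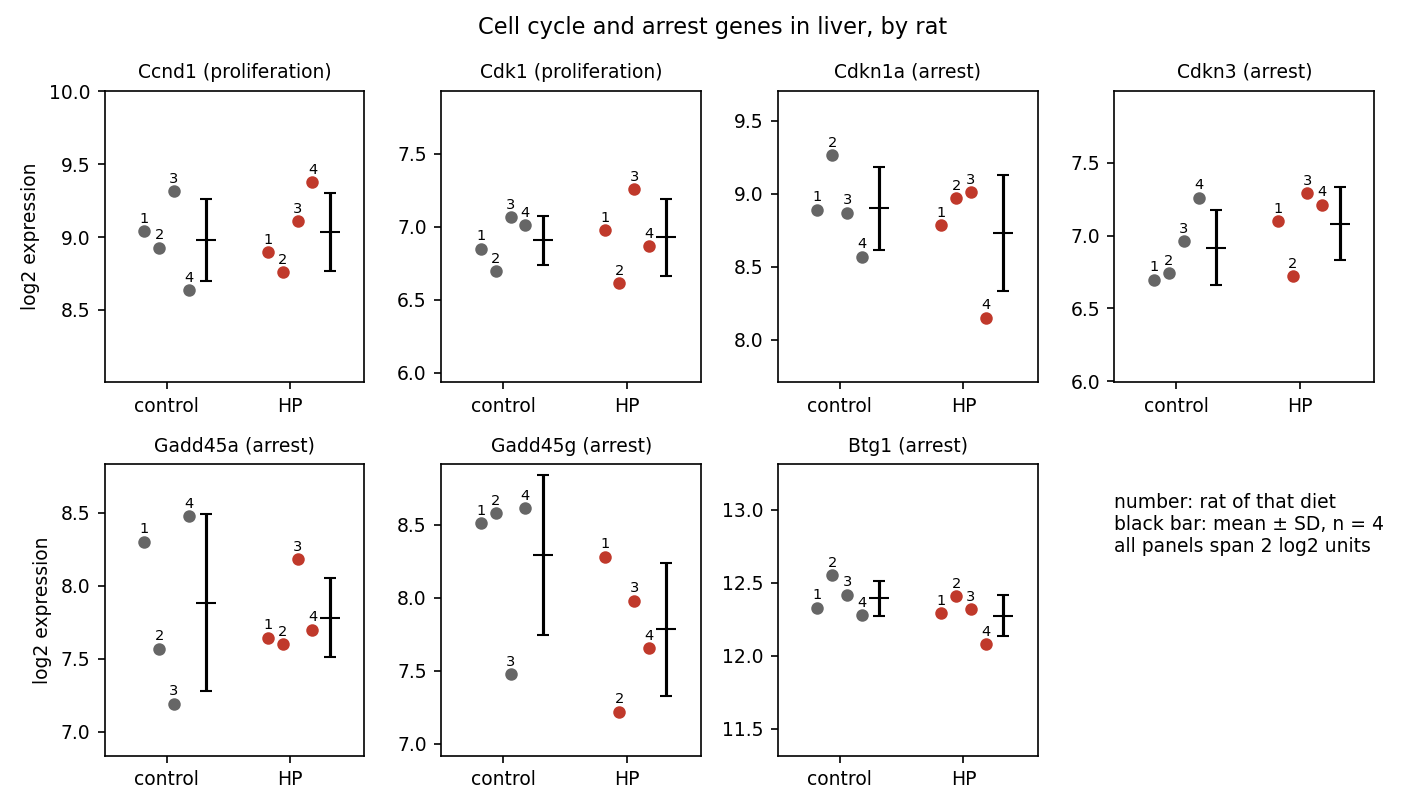
Log2 expression of the 7 measured genes in each rat, numbered within its diet, control rats in grey and HP rats in red, with black bars for the mean ± SD (n = 4) and panels of equal height on the log2 axis. The diets overlap in all 7 panels, and in Gadd45g the overlap comes from control rat 3 at 7.47.

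The promoters of Cdk1 and Cdkn3 are shown because both held matches to CCAAT and TTTGAA, motifs known from genes used in G2 and mitosis. Their levels are also compared with each other below. As above, matches of letters do not show that a factor binds. Cdk1 lies at chr20:19265043-19265342 on the plus strand and held CCAAT at 3 places, TTTGAA (the core of the CHR element) at 2 and TTTCGCGC, a form of the E2F site, at 1. Cdkn3 lies at chr15:22502136-22502435 on the plus strand and held CCAAT at 3 places and TTTGAA at 1, the last read on the other strand. Capitals again mark the matches.
Cdk1: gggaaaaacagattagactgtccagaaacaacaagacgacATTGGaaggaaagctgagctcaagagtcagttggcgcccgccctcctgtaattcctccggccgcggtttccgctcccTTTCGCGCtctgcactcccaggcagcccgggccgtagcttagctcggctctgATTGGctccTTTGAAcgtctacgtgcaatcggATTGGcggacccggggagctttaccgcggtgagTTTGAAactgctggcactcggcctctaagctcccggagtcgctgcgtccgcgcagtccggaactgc
Cdkn3: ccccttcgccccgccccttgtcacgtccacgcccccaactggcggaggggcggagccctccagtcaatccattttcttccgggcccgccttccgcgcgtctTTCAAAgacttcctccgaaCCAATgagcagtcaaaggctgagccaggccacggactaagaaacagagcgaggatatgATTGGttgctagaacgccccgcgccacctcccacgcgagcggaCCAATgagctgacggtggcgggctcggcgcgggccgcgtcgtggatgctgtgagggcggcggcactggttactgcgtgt

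CCAAT together with TTTGAA was found in 7.25% of all promoters, in 8 of the 24 proliferation promoters in the table and in 1 of the 8 arrest promoters, that of Cdkn3. Either E2F form, TTTCGCGC or TTTGGCGC, was in 0.841% of all promoters and in 8 of the 24 proliferation promoters (Mcm2, Mcm3, Mcm5, Mcm6, Mcm7, Stmn1, Tyms and Cdk1), and in 0 of the 8 arrest promoters. Of those 8 genes only Cdk1 was measured. The windows listed for Cdkn1a and Btg1 held none of the motifs searched, which also included TGACGTCA, found in 1.91% of all promoters. In the Btg1 window the bases after the listed start open with atg, the letters of a start codon. That window may therefore lie within the transcript, so the absence of motifs in it does not describe the Btg1 promoter. It is among the 8 arrest promoters counted above. Ccnd1 was not in the promoter table.

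Levels of the measured genes were also compared with each other across the 8 rats, over 21 pairs. Cdkn1a and Btg1 gave r = 0.931 (exact permutation p = 0.0021, adjusted 0.0443) and rho = 0.786 (exact permutation p = 0.0279, adjusted 0.386). Control rat 2 was highest and HP rat 4 lowest in both genes, and without these 2 rats r was 0.574, so that the relation rested on them. With the mean of each diet removed r was 0.945, and the second Cdkn1a probe set gave r = 0.596 with Btg1 (exact permutation p = 0.11) and rho = 0.690. Cdk1 and Cdkn3 gave r = 0.754 (exact permutation p = 0.0324, adjusted 0.340) and rho = 0.762 (exact permutation p = 0.0368, adjusted 0.386). HP rat 3 was the highest in both, r was 0.568 without HP rats 2 and 3, and the relation did not pass the adjustment.

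**Figure D4:**
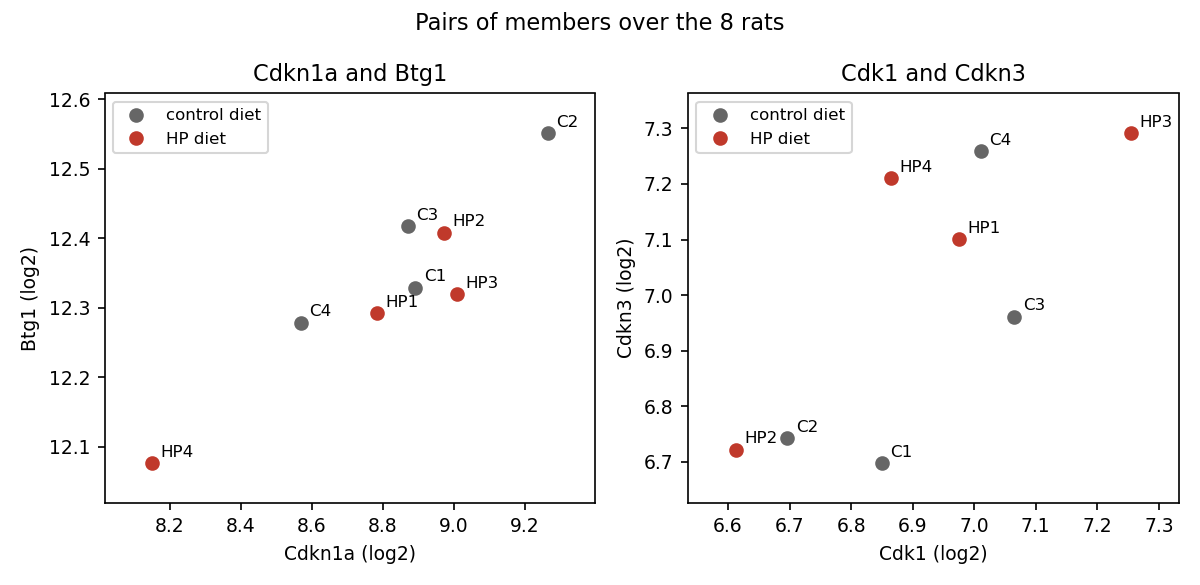
Log2 expression of Btg1 against Cdkn1a and of Cdkn3 against Cdk1, 1 point per rat, control rats in grey and HP rats in red, numbered within the diet. Both pairs rise together over the 8 rats (r = 0.931 and r = 0.754), and control rat 2 and HP rat 4 mark the ends of the first relation.

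As a group, the 2 measured proliferation genes had a median difference of 0.04, both with a higher mean in HP rats. The 5 measured arrest genes had a median of -0.12, with 4 lower means and 1 higher. Over all measured genes the median was -0.01, with quartiles at -0.10 and 0.07. Leaving out 1 rat turned the sign of the difference for Ccnd1, Cdk1, Cdkn1a and Gadd45a, and for none of Gadd45g, Cdkn3 and Btg1. When HP rat 3 was left out, the median was -0.028 for the proliferation genes and -0.24 for the arrest genes, the lowest of these values. The highest were 0.14 for the proliferation genes, with HP rat 2 left out, and -0.05 for the arrest genes, with HP rat 4 left out.

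Other genes of the pathway were compared in the same way. Of 107 further proliferation genes, 93 had a named probe set and 11 were measured, 7 with a higher and 4 with a lower mean in HP rats and a median of 0.02. Rank products called 1 of the 11 higher and 0 lower, counts near the 8.4% and 9.94% of all measured genes. The called gene was Rfc1, a subunit of the clamp loader of DNA replication, at 8.69 ± 0.14 in control rats and 8.87 ± 0.08 in HP rats (SD, n = 4 each), with an FDR of 0.044, a difference of 0.17 and a limma adjusted p of 0.407. The difference was 0.005 when the probe sets of Rfc1 were averaged, and the call was lost. It was also lost when only the spanning probe sets were ranked (FDR 0.842), with the dimmest 25% of probe sets left out (FDR 0.0751), and without control rat 3, control rat 4 or any 1 of the 4 HP rats, with differences from 0.11 to 0.19.

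Of 48 further arrest genes, 45 had a named probe set and 12 were measured, 5 with a higher and 7 with a lower mean and a median of -0.003. Rank products called 1 higher and 1 lower, again near the share over all measured genes. Txnip, a thioredoxin-binding protein that is induced by glucose and restrains growth, stood at 10.24, 9.79, 9.59 and 10.18 in control rats 1 to 4 and 10.19, 10.62, 10.52 and 10.24 in HP rats 1 to 4. All 4 HP rats lay above the control mean, and 3 of the 4 above every control rat, with a difference of 0.44 (standard error 0.16, FDR 0.003, limma adjusted p = 0.339). Without HP rat 2 the difference in Txnip was 0.37 and the FDR 0.0526, and the FDR was 0.170 when only the spanning probe sets were ranked. Tob1, an antiproliferative gene related to Btg1, was called lower with a difference of -0.20 (standard error 0.08, FDR 0.047, limma adjusted p = 0.373), and the call was lost without any 1 of the 4 control rats, HP rat 2 or HP rat 4, with differences from -0.27 to -0.16. It was also lost with quantile normalization (FDR 0.0532), with only the spanning probe sets ranked (FDR 0.793) and with the dimmest 25% left out (FDR 0.0787). Limma called 0 of the 23 other genes, and 1 of them had an unadjusted p under 0.05 in each direction, Txnip and Tob1, against 5.37% of all tested probe sets higher and 7.29% lower.

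**Figure D5:**
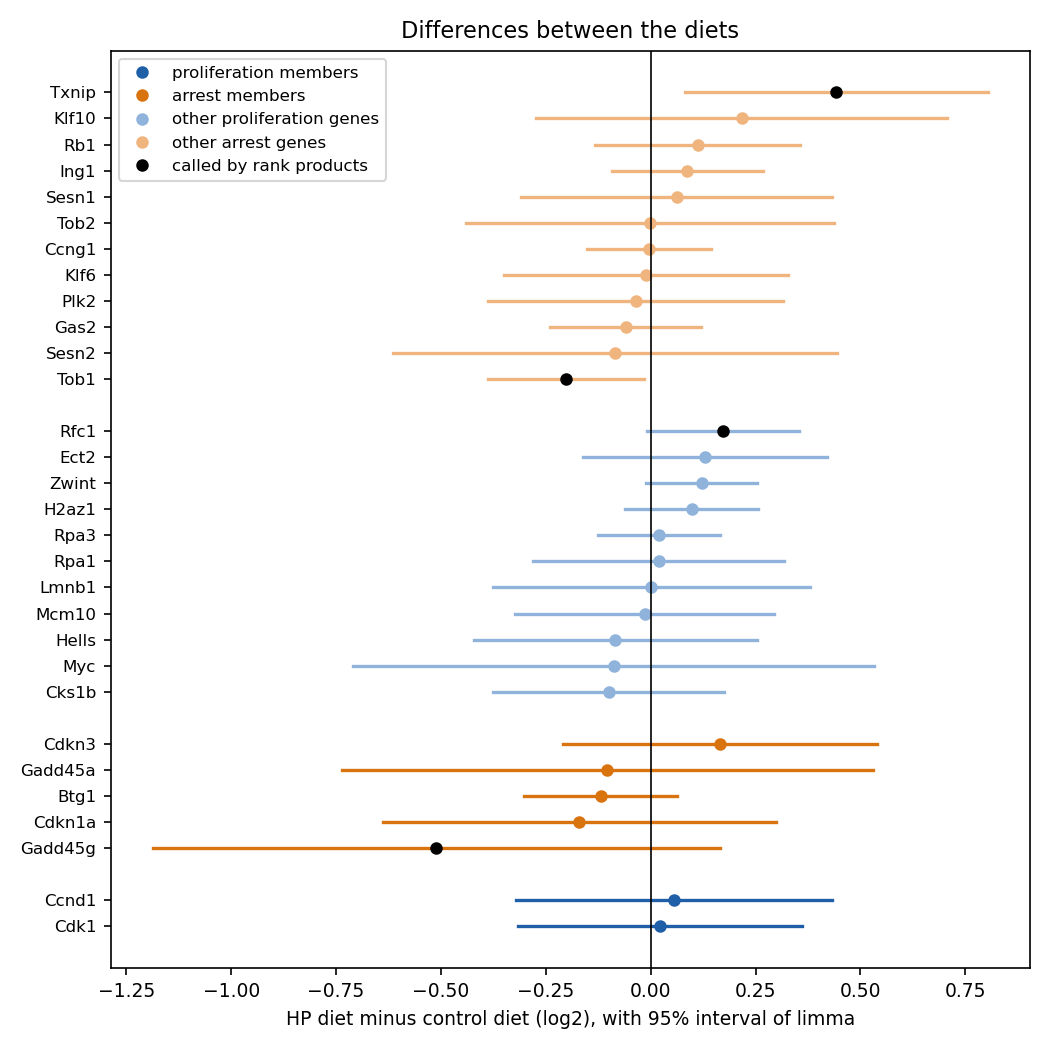
Mean log2 difference, HP diet minus control diet (horizontal axis), with its 95% interval from limma, for the 7 listed genes and the 23 other measured genes of the pathway, those called by rank products in black. The intervals of all 7 listed genes cross 0, from Gadd45g at -0.51 to Cdkn3 at 0.17.

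Markers of other liver cells were set beside these results. Over all measured genes, rank products called 8.4% higher and 9.94% lower, and 7.12% were without overlap. Measured were 3 of 8 listed markers of sinusoidal endothelium, 4 of 9 of stellate cells and fibroblasts and 1 of 8 of erythroid cells. The rest of these, such as Stab1, Pecam1, Des, Col1a1 and Alas2, were near constant or had no named probe set. The 10 measured Kupffer cell and macrophage markers had a median difference of -0.05 (8 lower means, 2 higher) with 1 called lower by rank products, Cd5l at -0.33 without overlap, and their mean level ran from 9.12 to 9.51 in control rats and from 9.11 to 9.31 in HP rats. The 3 measured markers of sinusoidal endothelium all had higher means in HP rats, with a median of 0.23 and 2 called, Kdr at 0.26 and Stab2 at 0.23, and their mean level ran from 9.41 to 9.54 in control rats and from 9.59 to 9.75 in HP rats without overlap. The 4 stellate cell and fibroblast markers also all had higher means, with a median of 0.11 and mean levels from 8.41 to 8.71 and from 8.54 to 8.77. The 1 measured erythroid marker, Hbb, was called 0.24 higher with overlap, while the 4 measured hepatocyte markers averaged 12.7 to 12.8 in control rats and 12.6 to 12.7 in HP rats. Of these 4, Cps1 was called lower at -0.27 without overlap. Hnf4a, Apoa1 and Fgb were not called and differed by -0.10, 0.02 and 0.003. The Hnf4a probe set used here spanned 0.39, and another Hnf4a probe set spanned 0.83. The paper lists Hnf4a as up-regulated by the HP diet, so the value given here does not settle its direction. The part of these shifts in the differences of the cell cycle genes was not tested.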

How the data were processed

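Total RNA from liver of 4 control and 4 HP rats was hybridised to GeneChip arrays. The deposited values are log2 expression, which the authors obtained by summarising the probes of each probe set with FARMS in R 2.13.1 (version per the submitters' processing notes). The sources used here do not give a normalization between arrays, and none was added. No detection calls were used. Precision is limited by the number of arrays and by the near-constant values of most dim probe sets. Of 31099 probe sets, 57 were array controls, and 20826 carried 1 symbol in the annotation table.

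Rank products were computed with numpy 2.4.6 in Python 3.11.15 over all probe sets, using 16 pairs of arrays and 1000 permutations (FDR under 0.05). The limma 3.58.1 test (R 4.3.3, trend, robust, two-sided) was run over 4155 probe sets spanning at least 0.05, with Benjamini-Hochberg adjustment over all of them. Correlations were given exact permutation p-values (two-sided, scipy 1.17.1). Both tests were checked on simulated data with known changes and with each rat drawn independently, unlike the real rats. There rank products recovered more of the changed probe sets than limma and also called more unchanged ones, beyond its nominal FDR. Values in every rat were given for genes called or without overlap, for those with the most positive and most negative differences in each class, and for 11 genes of the list where measured. Other pathway genes were named where rank products called them. Genes, lists and this naming rule were chosen with earlier results of these data known. Other software was pandas 2.3.3, matplotlib 3.10.9 and statmod 1.5.0. Alternatives were array weights, quantile normalization, centring on spanning probe sets, other filters, means over probe sets, the replicate block and leaving out each rat.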

Additional observations from a re-analysis of the deposited data

Results flagged for a closer look

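Gadd45g in the control rats was marked for a closer look because 1 rat stood apart from the rest of its group. Control rat 3 had a log2 level of 7.47, whereas the nearest other control rat was at 8.51, and the gap took up 0.909 of the range of the group, above Dixon's critical value for 4 samples. This was the only one of 14 groups tested (7 genes in 2 diets), and chance marks about 1 in 20.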

How the results depend on the processing

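No gene of the list was called by limma at an adjusted p under 0.05 in any setting run, the fit with the replicate number as a block included. That block gave 0 calls among the 7 genes and 0 over all probe sets. Deviations of rats with the same replicate number correlated at 0.479, 0.0308, -0.123 and -0.197. Those of rats with different numbers ran from -0.480 to 0.514. These values do not settle whether the replicate numbers pair the rats. The count of arrest genes called lower by rank products was 1, and 0 when only the spanning probe sets were ranked. Leaving out each rat in turn, the count of genes without overlap ran from 0 to 1 (1, Gadd45g, without control rat 3), and the count of arrest genes called higher from 0 to 1 (1, Cdkn3, without control rat 4). With array weights the difference turned to -0.011 for Ccnd1 and 0.18 for Gadd45a. Leaving out each rat in turn, it ran from -0.058 to 0.17 for Ccnd1, from -0.088 to 0.13 for Cdk1, from -0.28 to 0.022 for Cdkn1a, from -0.33 to 0.094 for Gadd45a, from -0.79 to -0.32 for Gadd45g, from 0.09 to 0.29 for Cdkn3 and from -0.16 to -0.05 for Btg1. Gadd45g, Cdkn3 and Btg1 thus kept their direction there. The cause of these changes was not tested. The number of rats and the near-constant values of 28 genes limit what could be seen.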
